A study of Mus musculus with 23 samples.

Results

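The heat response of mouse embryos that carry 1 working copy of p53 was measured by setting 4 heterozygous (p53 +/-) pools bathed at 43 °C against 4 heterozygous pools bathed at 38 °C. These are 8 of the 23 arrays of the study, chosen by their genotype and bath labels. All probes with at least 3 values on each side were compared, which left 25309 of 36227 probes. The study asked how p53 status and hyperthermia shape gene expression in whole embryos of day 8.5, taken from crosses between p53 heterozygous mice. The bath lasted 10 minutes, and each pool combines RNA from 3 to 7 whole embryos that share genotype and bath. The heterozygous groups are called control (38 °C, pools A to D) and heat (43 °C, pools A to D). Wildtype (p53 +/+) pools had the same baths with 4 pools each, and null (p53 -/-) pools had 4 control and 3 heat pools here. The sources used here do not name the strain, the p53 allele, the sex of the embryos or the time from bath to collection.

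A cell that is heated beyond its normal range releases heat shock factor 1, a transcription factor that switches on chaperones. Chaperones such as the Hsp70 proteins and the small heat shock proteins hold damaged proteins in solution and help them refold. p53 is a second stress-activated transcription factor, which raises genes for growth arrest, such as Cdkn1a and Ccng1, and for cell death, such as Pmaip1 and Bbc3. At day 8.5 the neural tube is closing, and raised temperature at this stage is a known cause of neural tube defects.

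Intensities are in the arrays' relative units after normalization, and the pools of a group are always given in the order A to D. The lowest value that can be read is 0.66, the common floor to which the dimmest values were set, and a fold change that rests on it is understated. A log2 fold change of 1 is a doubling, and its error is a standard error (SE). Adjusted p-values are from limma with Benjamini-Hochberg adjustment over all tested probes, and "rose" and "fell" are used only below 0.05. Unless another fit is named, SEs and adjusted p-values use a spread pooled within groups over all 23 arrays, wildtype and null pools included. They therefore do not measure the spread between the heterozygous pools alone. The study calls its pools biological replicates without naming litters. In pooled tissue, fewer cells of a type and less RNA per cell cannot be told apart. A gene is represented by its tested probe of highest mean level.

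The columns of the 2 baths differ in how they were filled. The heterozygous control columns hold 7576 to 11666 blank cells each, and the heat columns hold none but 146 to 187 cells with a missing code. Of the 10918 probes that could not be tested, 10915 lacked control values. Most are dim (10439 at the floor in heat pools), but 123 have a heat median above 100, against 175 such probes that were tested. Among the bright ones are many ribosomal protein genes, of which 12 of 31 on the array were tested. Bath and array processing cannot be told apart. The number of arrays limits the precision. No probe was named Trp53, so the genotype labels were not checked with the p53 transcript. Genes of neural tube, heart, primitive red cells, endothelium and yolk sac were all represented among the tested probes (26 to 36 genes in each list used below). Of 13 immune cell genes on the array S100a8 and Cd14 were tested, and both read under 1 in all 8 pools.

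The pools of a bath were not alike. Control A and B correlated at 0.995 over the probes, as did control C and D, against 0.972 to 0.980 between the pairs. Heat D correlated at 0.988 and 0.987 with control C and D and at 0.972, 0.983 and 0.987 with heat A, B and C. Cdkn1a, the p53-induced inhibitor of the cell cycle, moved with this split: it read 5.41, 5.25, 1.29 and 1.45 in the control pools and 5.24, 4.96, 5.49 and 1.92 in the heat pools. Control A and B thus stood at the level of heat A to C, and heat D stood near control C and D. Xist, the RNA of the inactive X chromosome and chosen after its values were seen, read 1.5, 1.51, 14.8 and 0.66 in control and 0.79, 0.97, 0.75 and 1.74 in heat, so control C differs from the other pools. Results below are therefore given, where it matters, with control A and B alone, with control C and D alone, and without control C, control D and heat D.

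**Figure D1:**
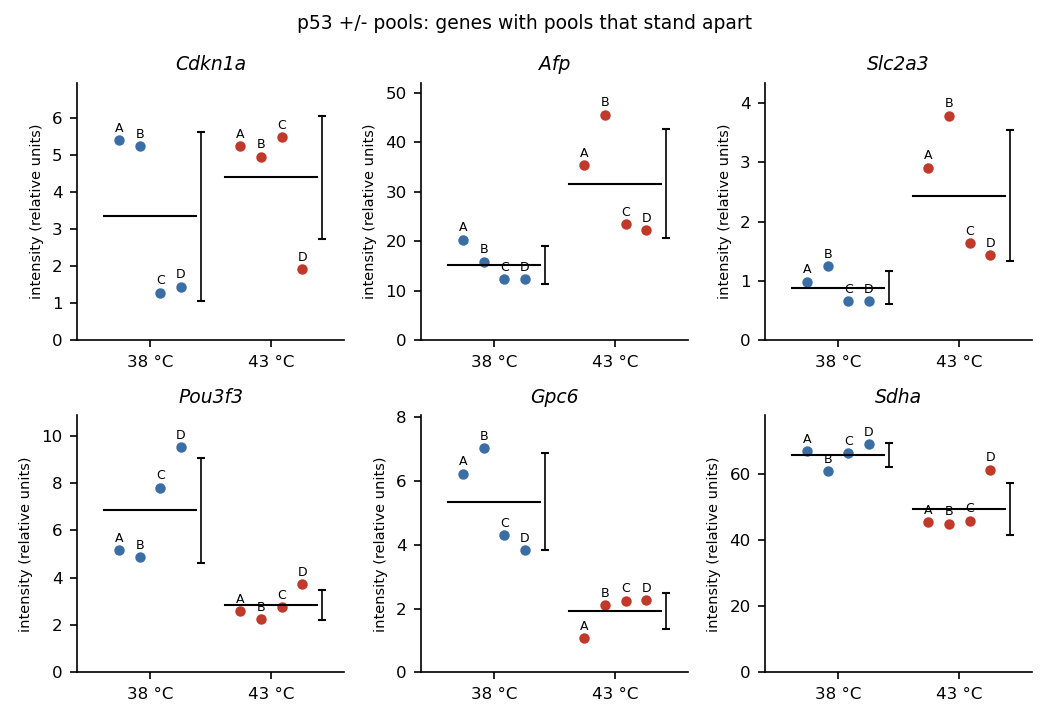
Normalized intensity (relative units, linear axis from 0) of 6 genes in each heterozygous pool; letters name the pool, lines the group mean and bars 1 SD (n = 4). Cdkn1a is high in control A and B and low in control C, control D and heat D, Slc2a3 and Pou3f3 also differ between the control pairs, Gpc6 is low in heat A, and Sdha is high in heat D.

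In all, 569 probes changed with the bath: 188 rose and 381 fell, or 2.25% of those tested (0.743% higher and 1.51% lower). Counted as genes, 120 of 14074 rose (0.853%) and 306 fell (2.17%), and these shares are the background for every gene group below (3.03% in either direction). The heat and control values of 2061 probes (8.14%) did not overlap, with heat higher for 3.45% and lower for 4.69%. Over named genes alone these shares were 3.64% and 6.15%. By sign alone, 7309 of the 14074 genes were higher in heat and 6765 lower, the background for counts of higher or lower genes below. These counts include genes at the floor in all pools, whose sign carries no meaning. The count depends on which pools are used: 1505 probes changed with control A and B only (873 rose and 632 fell), 646 with control C and D only, and 1353 without control C, control D and heat D. It was 325 without control A, and 290, 352 and 333 without heat A, B or C. With the values scaled only as deposited, 21.5% of 409 changed probes rose, against 33.0% of the 569. When the spread was estimated from the 8 heterozygous arrays alone, 138 probes changed. A set of 159 probes (48 higher and 111 lower) changed in the main comparison, with either pair of controls, and whichever 1 of the 8 pools was left out.

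Hspb1, a small heat shock protein that binds unfolding proteins, gave the largest rise among the chaperones. It read 15.2, 15.5, 18.9 and 19.0 in the control pools and 72.3, 72.1, 63.5 and 75 in the heat pools. Every heat pool lay far above every control pool, and heat D did not differ from heat A to C as Cdkn1a did. The rise was 2.05 ± 0.10 on the log2 scale (adjusted p = 1.2e-09).

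Hspa1a encodes the inducible Hsp70, the classic chaperone of the heat shock response, and its level stayed low. It read 0.75, 0.81, 0.66 and 0.75 in control and 1.63, 1.49, 2.09 and 1.76 in heat. The groups did not overlap, but the fit over all 23 arrays, in which this gene varied widely, gave 1.23 ± 1.29 (adjusted p = 0.76). With the spread taken from the heterozygous arrays alone the adjusted p was 0.015. The same contrast was 5.15 in wildtype and 3.21 in null pools. The differences between the heterozygous and these responses were -3.93 ± 1.80 and -1.98 ± 1.87, and neither passed (adjusted p = 0.75 and 0.62). Its near-identical neighbour Hspa1b read 3.80, 4.02, 4.38 and 4.35 in control and 4.56, 4.29, 4.96 and 4.35 in heat. These values overlap, and the difference was 0.13 ± 0.89 (adjusted p = 1). Probes for such close copies can share signal.

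The windows of 250 bases before the start of Hspb1, Hspa1a and Tcte3 are shown because Hspb1 rose, Hspa1a did not pass the test, and Tcte3, described below, gave the largest rise of all. They come from RefSeq (build GRCm38.p6), read 5′ to 3′ on the gene's strand, and capitals mark each match to the heat shock element GAANNTTC or its variant TTCNNGAA, searched on both strands; both are palindromes, and a match is a description and not a bound site.
Hspb1, chr5:135887669-135887918, plus strand: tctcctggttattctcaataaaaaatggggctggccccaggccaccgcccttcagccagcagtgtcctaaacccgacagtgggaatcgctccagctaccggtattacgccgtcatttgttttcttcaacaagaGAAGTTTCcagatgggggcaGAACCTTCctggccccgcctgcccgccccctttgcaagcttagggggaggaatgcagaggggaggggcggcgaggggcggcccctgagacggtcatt
Hspa1a, chr17:34972157-34972406, minus strand: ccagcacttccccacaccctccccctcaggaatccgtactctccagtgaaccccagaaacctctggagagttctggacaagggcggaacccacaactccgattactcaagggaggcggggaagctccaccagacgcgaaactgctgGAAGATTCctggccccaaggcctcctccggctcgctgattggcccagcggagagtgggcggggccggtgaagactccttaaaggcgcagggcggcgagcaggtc
Tcte3, chr17:15041560-15041809, minus strand: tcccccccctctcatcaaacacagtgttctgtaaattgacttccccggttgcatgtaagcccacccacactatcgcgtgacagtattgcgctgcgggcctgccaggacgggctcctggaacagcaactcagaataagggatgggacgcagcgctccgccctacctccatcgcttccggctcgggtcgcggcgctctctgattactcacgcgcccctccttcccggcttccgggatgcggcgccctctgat
Hspb1 holds 2 matches, Hspa1a 1 and Tcte3 none. Of 32851 RefSeq promoters (these 250 bases and 50 after the start), 15.1% hold at least 1.

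Of the 10 small heat shock genes tested, Hspb1 rose and Hspb3, a muscle member of the family, fell. Hspb3 read 2.18, 2.15, 2.36 and 2.33 in control and 1.40, 1.29, 1.56 and 1.62 in heat, without overlap (-0.62 ± 0.15, adjusted p = 0.037). The fall of Hspb3 passed the test with neither pair of controls alone, and in 9 of 20 alternative settings. Hspb8 was measured in 3 control pools (3.96, 3.16 and 4.93 in A, B and D) and read 4.83, 5.4, 6.06 and 9.42 in heat. These overlap, and the difference of 0.65 ± 0.24 did not pass (adjusted p = 0.20).

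Hsp90aa1, the stress-inducible Hsp90, read 106, 116, 114 and 109 in control and 139, 155, 172 and 150 in heat. All 4 heat pools lay above all controls, and the rise was 0.46 ± 0.08 (adjusted p = 0.0042). It did not pass with each array centred on its median or with the values as deposited. It was 1 of 22 Hsp90 and co-chaperone genes to change. None of 10 Hsp70 and Hsp110 genes, 25 DnaJ co-chaperones, 13 chaperonins and 32 proteasome subunits did. Hsph1, the large Hsp110, read 2.36, 3.06, 3.30 and 2.97 against 3.29, 3.82, 4.45 and 5.60 (0.54 ± 0.27, adjusted p = 0.36). Dnajb1, the main partner of Hsp70 after heat, read 11.3, 11.6, 13.3 and 13.8 in control and 8.18, 10.4, 8.49 and 10.6 in heat. It was thus lower in heat in every pool, but the difference of -0.41 ± 0.20 did not pass (adjusted p = 0.34).

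**Figure D2:**
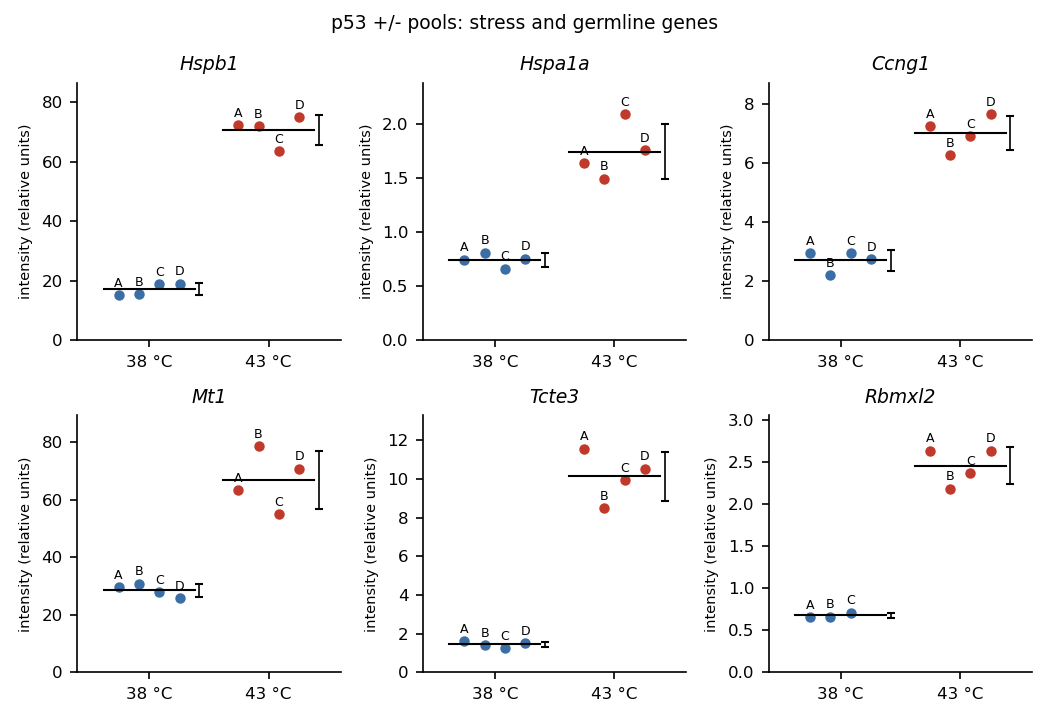
Normalized intensity (relative units, linear axis from 0) of 6 genes in each heterozygous pool; letters name the pool, lines the group mean and bars 1 SD (n = 4; n = 3 for Rbmxl2 in control, where pool D has no value). The 4 heat pools lie above all control pools in each panel; Hspb1 reaches 63.5 to 75 in heat, while Hspa1a stays between 1.49 and 2.09.

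Among 46 p53 target genes tested, Ccng1 alone rose and none fell (the list's median change was -0.04, against 0 over all genes). Ccng1, cyclin G1, read 2.95, 2.19, 2.95 and 2.74 in control and 7.24, 6.26, 6.90 and 7.63 in heat. The groups lie well apart, and the rise was 1.38 ± 0.20 (adjusted p = 0.0015). It was 1.53 in wildtype and 0.28 in null pools. Neither difference between these responses passed the test.

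The cell death gene Pmaip1 (Noxa) read 5.20, 4.39, 4.47 and 4.18 in control and 6.37, 6.61, 6.04 and 7.45 in heat. All heat pools were higher, yet the difference of 0.54 ± 0.28 did not pass (adjusted p = 0.38). Its change was 1.97 in wildtype and 0.60 in null pools, and the difference from wildtype did not pass (-1.44 ± 0.39, adjusted p = 0.36). Bbc3 (Puma) read 2.39, 1.83, 2.29 and 2.71 against 3.05, 2.39, 2.59 and 2.81, with overlap (0.24 ± 0.19, adjusted p = 0.63). Cdkn1a, whose pools are given above, differed by 0.59 ± 0.53 (adjusted p = 0.69). Its sign turned with the pools used: the value was -0.39 against control A and B, and -0.03 without control C, control D and heat D. Mdm2, the ligase that degrades p53, lay between 0.66 and 0.78 in all pools with a value, too near the floor to compare. Sfn (14-3-3 sigma) read 6.42, 7.46, 7.48 and 7.69 against 9.98, 9.26, 10.3 and 10.6. These groups did not overlap, and the difference of 0.47 ± 0.13 did not pass (adjusted p = 0.072).

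Mt1, metallothionein 1, binds zinc and copper and is induced by metals and many stresses. It read 29.6, 30.8, 27.9 and 25.8 in control and 63.3, 78.6, 54.9 and 70.7 in heat. The lowest heat pool was well above the highest control (1.22 ± 0.15, adjusted p = 0.00043). The related Mt2 read 3.09, 2.87, 2.43 and 2.66 against 4.34, 3.48, 4.17 and 4.98, without overlap, but missed the threshold (0.61 ± 0.20, adjusted p = 0.12). The promoter of Mt1 holds 3 matches to the core metal element TGCNCNC (both strands), that of Sqstm1 holds none, and 51.0% of RefSeq promoters hold at least 1. Sqstm1, the autophagy receptor p62, read 38.9, 37.8, 40 and 36.5 against 46.4, 57.2, 46.5 and 69.7 (0.50 ± 0.10, adjusted p = 0.014). Its rise did not pass with median centring, with the values as deposited or against control C and D only. Mt1 and Sqstm1 were the 2 of 20 metal and oxidative stress genes to change.

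Other stress groups moved little. Of 26 endoplasmic reticulum stress genes 19 were lower in heat (median -0.14), and Sdf2l1, a cofactor of the chaperone BiP, fell. It read 31.9, 31.2, 29.7 and 34.7 in control and 22.3, 23.4, 20.9 and 21.2 in heat (-0.54 ± 0.08, adjusted p = 0.0017), so the groups were far apart. Creld2 and Pdia4 of the same list gave -0.34 ± 0.10 (adjusted p = 0.093) and -0.46 ± 0.14 (adjusted p = 0.091). Of 21 immediate early genes Fosb rose. It read 3.28, 3.00, 2.98 and 3.09 against 4.31, 3.60, 3.97 and 3.65 (0.33 ± 0.07, adjusted p = 0.016), a rise that did not pass with median centring, as deposited or against control A and B only. Of 25 apoptosis regulators Hrk, a BH3-only protein, rose. It read 0.91, 0.92, 0.66 and 0.66 in control and 1.25, 1.16, 1.13 and 1.07 in heat (0.57 ± 0.14, adjusted p = 0.037). Its control values split as the pools do, and it did not pass against control A and B only.

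Genes normally used in germ cells gave 5 rises and no fall among 21 tested, of 44 on the array. Those not tested had under 3 control values, and most of them lay at the floor in every heat pool. With 23.8% of tested members higher past the threshold, against 0.853% of all genes, this was the largest share of rises in any list. The share leaves out the untested members, and the list was put together with earlier results of these data known. Tcte3, a dynein light chain of sperm flagella, read 1.62, 1.39, 1.27 and 1.5 in control and 11.6, 8.50, 9.93 and 10.5 in heat. No pool of either group came near the other, and the rise of 2.81 ± 0.11 (adjusted p = 5.4e-11) was the largest of all named genes. Rbmxl2, which binds RNA in the male germ line, was at 0.66, 0.66 and 0.71 in control A to C and at 2.64, 2.18, 2.37 and 2.64 in heat (1.85 ± 0.10, adjusted p = 1.8e-08). Control A lies at the floor and control B and C just above it, so this fold may be understated. The log2 change stayed between 1.81 and 1.94 in the 15 alternative settings that could fit this gene.

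Smc1b, a cohesin subunit of meiosis, read 0.98, 0.91, 1.01 and 1.28 against 2.04, 1.88, 2.11 and 2.67 (1.06 ± 0.14, adjusted p = 0.00056). Dmc1, the meiotic recombinase, read 0.90, 0.84, 0.90 and 1.22 against 1.92, 2.06, 1.70 and 1.97 (0.997 ± 0.11, adjusted p = 0.00027). Control D was the highest control for both, and still lay under every heat pool. Ddx4, the germ cell helicase Vasa, rose less, by 0.42 ± 0.10 (adjusted p = 0.029), from 1.05 ± 0.10 to 1.40 ± 0.10 (SD, n = 4). It lost the threshold in 12 of 20 alternative settings. None of the 5 promoters holds a heat shock element match in its window; Hspb1 and Hspb3 are the 2 of 7 changed heat shock and germline genes with a RefSeq promoter that do.

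Of 17 enzymes of cholesterol synthesis tested, 6 fell (35.3% against 2.17% of all genes) and none rose. In all, 16 of the 17 had a lower mean in heat pools. The median change was -0.57, against 0 over all genes. Cells make cholesterol from acetyl-CoA through mevalonate, farnesyl diphosphate and lanosterol, and the transcription factor SREBP2 (Srebf2) drives the whole chain. Along the mevalonate branch, Pmvk read 33.0, 28.4, 32.4 and 32.4 in control and 21.6, 21.2, 22.1 and 23.8 in heat (-0.51 ± 0.06, adjusted p = 0.00041). Mvd, the next enzyme, read 7.66, 7.43, 9.70 and 10.0 against 3.89, 4.37, 4.94 and 5.49 (-0.90 ± 0.16, adjusted p = 0.0051). Fdps, which makes farnesyl diphosphate, read 74.3, 67.1, 67.6 and 68.4 against 39.1, 38.7, 40.7 and 42 (-0.79 ± 0.12, adjusted p = 0.0023). For these 3 enzymes no heat pool reached the lowest control.

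The sterol-modifying enzymes after lanosterol gave the other 3 falls. Cyp51, lanosterol demethylase, read 22.6, 21.2, 27.4 and 27.2 in control and 13, 12.6, 16.6 and 17.9 in heat (-0.72 ± 0.15, adjusted p = 0.016). Tm7sf2, the next reductase, read 13.4, 14.6, 14.2 and 14.6 against 7.81, 7.58, 8.50 and 7.78 (-0.84 ± 0.09, adjusted p = 9.8e-05). Msmo1, a sterol methyl oxidase, read 13.1, 14.6, 14.4 and 17.0 against 9.22, 7.42, 10.9 and 8.21 (-0.73 ± 0.18, adjusted p = 0.042). All 3 pairs of groups were apart. A second Cyp51 probe gave -0.67 (adjusted p = 0.069). Cyp51 and Msmo1 did not pass against control A and B only, and Msmo1 also not against control C and D only. Msmo1 kept the call in 8 of 20 alternative settings.

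Further members, named after their values were seen, were lower without passing: Mvk by 0.65 ± 0.23, Lss by 0.59 ± 0.18, Idi1 by 0.59 ± 0.22 and Sc5d by 0.29 ± 0.08 on the log2 scale (adjusted p from 0.074 to 0.18). Dhcr7 alone was higher (0.13 ± 0.11, adjusted p = 0.68). The list's median lay between -0.63 and -0.49 in all 20 alternative settings. It was -0.52 in wildtype and -0.29 in null pools. Srebf2 itself read 4.32, 4.13, 3.01 and 3.75 against 3.44, 2.71, 2.70 and 2.85, with overlap (-0.37 ± 0.19, adjusted p = 0.40).

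Of 18 genes for SREBP regulation, lipid uptake and fatty acid synthesis 3 fell, and the median was -0.33. Acaca, the acetyl-CoA carboxylase that starts fatty acid synthesis, read 27.5, 34.0, 30.9 and 29.2 in control and 20.1, 20.5, 23.4 and 21.4 in heat (-0.51 ± 0.07, adjusted p = 0.00053). Elovl6, which lengthens the chains, read 33.2, 29.9, 36.7 and 33.8 against 22.8, 22.8, 23.1 and 21.2 (-0.57 ± 0.11, adjusted p = 0.0079). Heat pools were lower throughout for both. Fads1, a desaturase, fell by 0.38 ± 0.10 (adjusted p = 0.045) and kept the call in 7 of 20 alternative settings. Fasn and Scd2, named likewise, were lower by 0.60 ± 0.16 (adjusted p = 0.060) and 0.42 ± 0.11 (adjusted p = 0.052). None of the 7 changed genes of these 2 lists with a RefSeq promoter holds the sterol element TCACNCCAC (both strands), which 1.24% of all promoters hold. With a share that low, finding none among 7 does not set these genes apart. Other forms of the element were not searched.

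**Figure D3:**
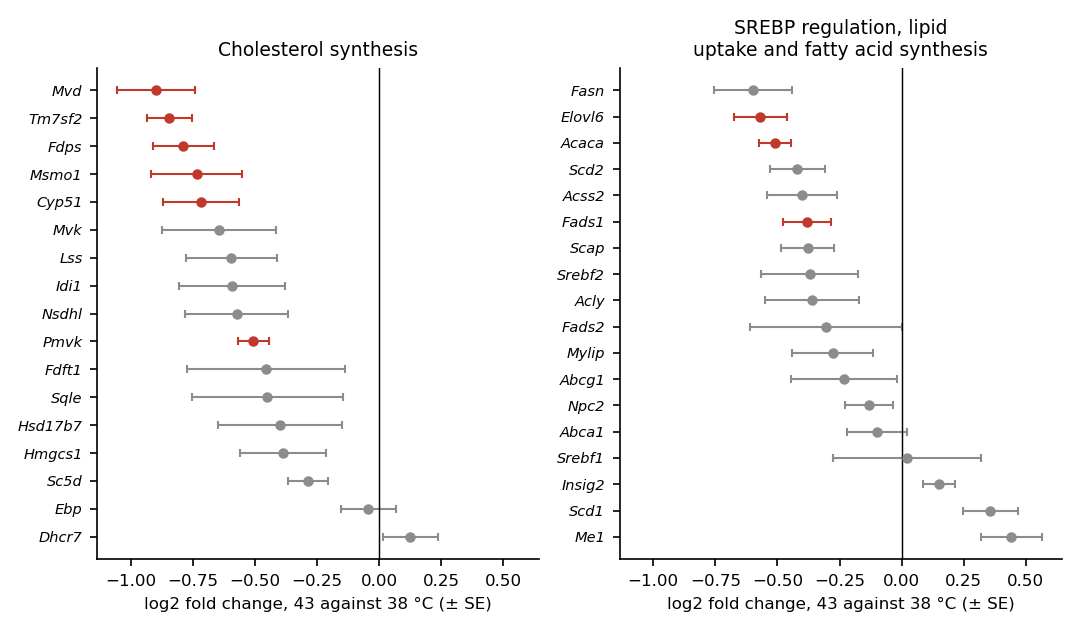
Log2 fold change (43 against 38 °C, ± SE) of the tested genes for cholesterol synthesis (17) and for SREBP regulation, lipid uptake and fatty acid synthesis (18) in heterozygous pools; red marks adjusted p under 0.05. All cholesterol genes but Dhcr7 lie below 0, and the 9 genes that passed lie between -0.90 and -0.38.

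Regulators of the early nervous system were among the largest falls. Of 36 brain patterning genes 4 fell and none rose (11.1% against 2.17%), although the median of the list was -0.01. Pou3f3 (Brn1), a POU factor of the neural plate, read 5.18, 4.87, 7.81 and 9.52 in control and 2.59, 2.25, 2.76 and 3.73 in heat (-1.24 ± 0.28, adjusted p = 0.023). The related Pou3f2 (Brn2) read 3.26, 3.08, 4.01 and 3.73 against 1.95, 1.32, 1.86 and 2.57 (-0.90 ± 0.20, adjusted p = 0.021). For both the heat pools lay under all controls, and control C and D were the higher pair; neither passed against control A and B only. A second Pou3f2 probe gave 0.07.

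Dbx1, a homeobox factor of the neural tube's interneuron domains, read 3.14, 2.93, 4.27 and 3.86 against 1.71, 1.39, 1.76 and 2.13 (-1.02 ± 0.21, adjusted p = 0.013). Neurog2, a proneural factor that starts neuron formation, read 1.64, 1.58, 2.42 and 2.11 against 0.79, 0.86, 0.92 and 1.25 (-1.02 ± 0.20, adjusted p = 0.010). The groups do not overlap for either, and neither passed against control A and B only. Neurog2 was the 1 of 30 proneural and early neuron genes to change. Neurog1 read 0.81, 0.74, 1.35 and 1.16 in control and 0.66 in all heat pools, where it lies at the floor (-0.58 ± 0.17, adjusted p = 0.077). Otx1, a forebrain and midbrain factor, read 13.7, 13.2, 13.5 and 12.9 against 9.30, 8.32, 8.95 and 9.75 (-0.56 ± 0.12, adjusted p = 0.021). It did not pass against control C and D only.

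Of 34 genes needed for neural tube closure 2 fell. Tulp3, a ciliary regulator of Hedgehog signalling, read 14.8, 14.3, 17.8 and 16.5 against 10.1, 12.7, 13 and 11.6 (-0.42 ± 0.08, adjusted p = 0.014). Scrib, a cell polarity gene whose loss leaves the tube open, read 28.2, 26.1, 34.0 and 35.1 against 23.5, 24.6, 24.1 and 22.3 (-0.38 ± 0.08, adjusted p = 0.016). For Scrib the gap was narrow in control A and B, with which alone the change was -0.17 and did not pass. Tulp3 did not pass there either. The share of falls in this list, 5.88%, rests on these 2 genes.

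In neural crest and face, 2 of 31 genes fell. Barx1, a homeobox gene of the pharyngeal arches, read 4.14, 4.07, 4.52 and 5.29 in control and 1.82, 2.09, 2.20 and 2.21 in heat. The highest heat pool lay far under the lowest control, and the fall of 1.11 ± 0.14 on the log2 scale (adjusted p = 0.00041) passed in 19 of 20 alternative settings. Prrx1, a factor of craniofacial mesenchyme, read 1.40, 1.46, 1.44 and 1.55 against 1.19, 1.07, 0.92 and 0.85 (-0.55 ± 0.12, adjusted p = 0.019), and did not pass against either pair of controls alone. Foxc1 was the 1 of 25 somite genes to fall (-0.37 ± 0.09, adjusted p = 0.039), and it passed in 4 of 20 alternative settings. Meox2 gave -0.67 ± 0.18 (adjusted p = 0.060).

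Cell type lists gave few calls. Nppb, the heart hormone BNP, read 4.25, 3.96, 4.61 and 4.21 in control and 1.44, 2.46, 1.62 and 1.75 in heat (-1.25 ± 0.32, adjusted p = 0.046). Its groups were well apart, and it was the 1 of 28 heart muscle genes to change. The call was lost against either pair of controls and in 12 of 20 alternative settings. Aqp8, a water channel, was the 1 of 28 red cell genes to rise. It read 1.13, 1.26, 0.79 and 0.72 against 1.59, 3.37, 1.93 and 2.30 (1.22 ± 0.29, adjusted p = 0.033) and did not pass against control A and B only. Krt19, an epithelial keratin, was the 1 of 18 gut and epithelial genes to rise. It read 15.3, 12.6, 11.6 and 12.7 against 21.2, 22.2, 17.8 and 19.6 (0.63 ± 0.10, adjusted p = 0.0021).

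Genes of yolk sac and visceral endoderm, the extraembryonic tissue attached to the embryo, were higher in heat for 27 of 29, with a median of 0.51, but none passed. Afp, the main secreted protein of this tissue, read 20.3, 15.8, 12.3 and 12.3 in control and 35.3, 45.5, 23.4 and 22.3 in heat (1.03 ± 0.32, adjusted p = 0.11). Control A and B were the higher controls and heat A and B the higher heat pools. Ttr and Apoa4, named after their values were seen, gave 0.68 ± 0.25 (adjusted p = 0.20) and 1.25 ± 0.49 (adjusted p = 0.23). The list's median was 0.31 against control A and B, 0.90 against control C and D, -0.50 in wildtype and 0.38 in null pools. Whether this tissue's share of the pools bears on other results was not tested.

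Of 26 endothelial genes 19 were lower (median -0.17) and none passed; Emcn came closest (-0.71 ± 0.18, adjusted p = 0.051). Of 33 genes of G2 and mitosis 28 were higher (median 0.15) and none passed, with Cenpf at 0.25 ± 0.07 (adjusted p = 0.076). Of 30 respiratory chain genes 25 were lower (median -0.11), and Sdha, a subunit of succinate dehydrogenase, fell. Sdha read 66.7, 60.7, 66.3 and 69.0 against 45.4, 44.9, 45.9 and 61.2 (-0.42 ± 0.11, adjusted p = 0.044), with heat D inside the control range. It did not pass against either pair of controls alone, and kept the call in 8 of 20 alternative settings. In glycolysis Slc2a3, the glucose transporter Glut3, rose and Pfkm, muscle phosphofructokinase, fell among 23 genes. Slc2a3 read 0.98, 1.24, 0.66 and 0.66 against 2.91, 3.78, 1.63 and 1.43 (1.40 ± 0.31, adjusted p = 0.023). Pfkm changed by -0.64 ± 0.15 (adjusted p = 0.031). Slc2a3 did not pass against control A and B only, nor Pfkm against either pair. Pfkm kept the call in 8 of 20 alternative settings.

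**Figure D4:**
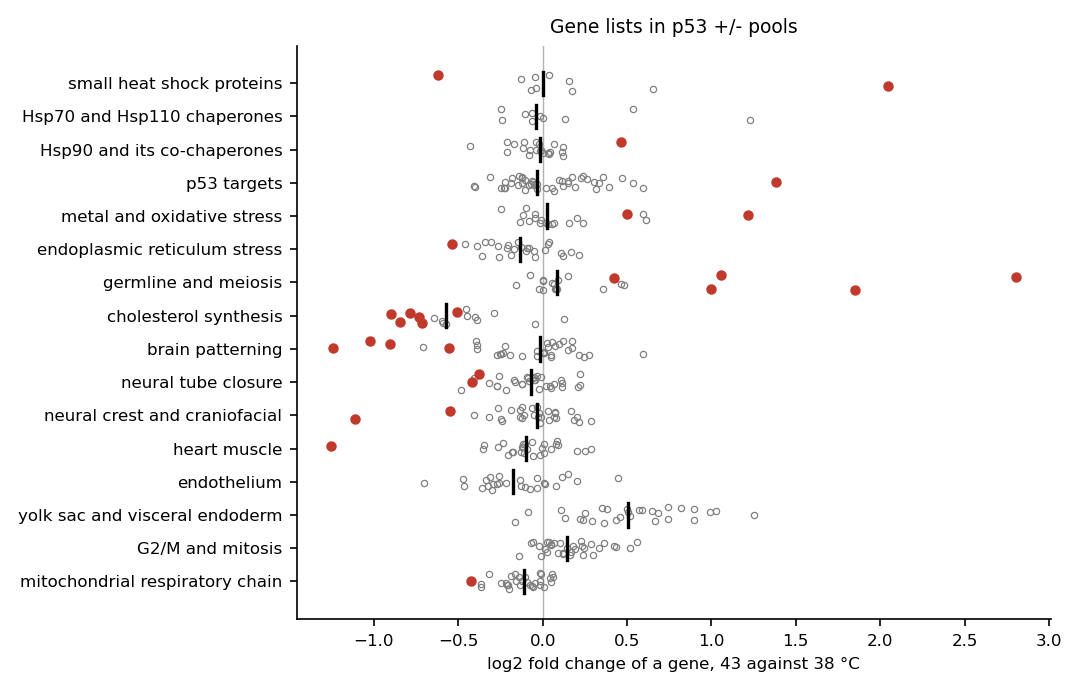
Log2 fold changes (43 against 38 °C) of the tested genes of 16 lists in heterozygous pools; each point is a gene, red points passed the test (adjusted p under 0.05) and black lines are medians. Cholesterol synthesis lies lowest (median -0.57) and yolk sac highest (median 0.51, no gene past the test), while most chaperone genes lie near 0 beside Hspb1 at 2.05.

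Other large rises carry no list label. Rbbp6, a ubiquitin ligase that binds p53 and Rb, read 7.75, 8.11, 8.90 and 8.54 in control and 20.4, 14.1, 14.9 and 17.4 in heat (0.99 ± 0.12, adjusted p = 0.00041), but 2 other Rbbp6 probes gave -0.10 and -0.18. Zcchc12 read 3.78, 3.71 and 3.88 in control A, C and D and 7.45, 7.14, 6.66 and 8.30 in heat (0.96 ± 0.13, adjusted p = 0.00076). Mapkapk3, a kinase that phosphorylates small heat shock proteins, read 0.76, 0.73, 0.94 and 0.76 against 1.14, 1.25, 1.28 and 2.13 (0.82 ± 0.17, adjusted p = 0.016). All 3 rose without overlap. Mapkapk3 did not pass against control C and D only. Sft2d3 (0.82 ± 0.13, adjusted p = 0.0028) has a second probe at -0.04, and 1700007K13Rik (1.08 ± 0.21, adjusted p = 0.011) and Nostrin (0.90 ± 0.21, adjusted p = 0.028) complete the 15 largest rises without overlap. Nostrin did not pass against control A and B only, and kept the call in 11 of 20 alternative settings.

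Several of the largest falls were in genes that cover a long stretch of genome, although others, such as Nppb and Pou3f3, are short (1.42 and 4.44 kb). Gpc6, a cell surface proteoglycan, read 6.23, 7.03, 4.30 and 3.84 in control and 1.07, 2.11, 2.25 and 2.26 in heat (-1.5 ± 0.29, adjusted p = 0.0088). Wwox, an oxidoreductase that spans a fragile site, read 3.00, 2.67, 3.71 and 3.92 against 1.28, 1.57, 1.30 and 1.69 (-1.18 ± 0.21, adjusted p = 0.0060), and its second probe fell by 0.56 (adjusted p = 0.0028). Astn1, a neuronal migration protein, read 2.33, 2.40, 2.38 and 1.90 against 0.68, 1.01, 1.08 and 1.49 (-1.13 ± 0.20, adjusted p = 0.0055). No heat pool reached a control in any of them, and Gpc6 did not pass against control C and D only. Their spans are 1055, 913 and 330 kb (RefSeq, GRCm38.p6), against a median of 20.7 kb over the 14010 tested genes with a span (99.5%).

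The share of genes that fell grew with span. It was 1.5% of 4124 genes under 10 kb, 1.52% of 4473 from 10 to 30 kb, 2.37% of 3669 from 30 to 100 kb, 3.71% of 1375 from 100 to 300 kb, and 10.3% of 369 at 300 kb and over. The share that rose went the other way, from 1.21% to 0.271%. The median span was 39.9 kb for genes that fell and 13.1 kb for genes that rose. Most long genes did not change: their median log2 fold change was -0.02, and 53.4% were lower. These classes were set after the names of the falling genes were seen, so they describe the data and were not tested.

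Of the 38 long genes that fell, 3 more are given here, chosen after their values were seen. Fhit (1612 kb), a second fragile-site gene, read 2.54, 2.01, 2.51 and 2.57 in control and 1.47, 1.79, 1.48 and 1.40 in heat (-0.65 ± 0.12, adjusted p = 0.0060). Ctnna2, the neural alpha-catenin (1098 kb), read 2.50, 2.25, 2.15 and 2.08 against 1.03, 1.29, 1.24 and 1.5 (-0.84 ± 0.14, adjusted p = 0.0042). Gphn, which anchors inhibitory receptors at synapses (467 kb), read 4.16, 3.93, 5.62 and 5.02 against 2.54, 3.14, 2.90 and 2.80 (-0.71 ± 0.12, adjusted p = 0.0028). Heat and control values did not overlap in any of the 38, against 6.15% of all named genes with heat lower and no overlap. As the 38 had passed the test on these same pools, this adds no support. The group also holds Smyd3, a lysine methyltransferase (-0.99 ± 0.13, adjusted p = 0.00077), and Sdk1, an adhesion protein (-0.87 ± 0.16, adjusted p = 0.0085), whose second probe lay at the floor.

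The gradient was present with other choices of pools and scaling. At 300 kb and over against under 10 kb, the shares of genes that fell were 8.94% and 1.48% as deposited, 8.82% and 2.45% against control A and B, 7.69% and 1.63% against control C and D, and 10.5% and 1.89% without control C, control D and heat D. However, the long genes also rose more often with control A and B alone (6.06% against 3.74%) and without control C, control D and heat D (5.25% against 3.53%). Among genes with a mean log2 level above 1 the shares that fell were 15.2% and 2.13%. In wildtype pools they were 8.55% and 2.28%, and in null pools 7.14% and 2.29%. All 38 genes were lower in both, and 19 passed the test in wildtype and 14 in null pools. This is not particular to long genes. Of all probes that fell in heterozygous pools, 369 of 381 were lower in wildtype and 356 of 380 in null pools. With only the 8 heterozygous arrays in the fit, 7 of the 38 kept the call. Probe position and RNA quality were not examined, and their part in this gradient was not tested.

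**Figure D5:**
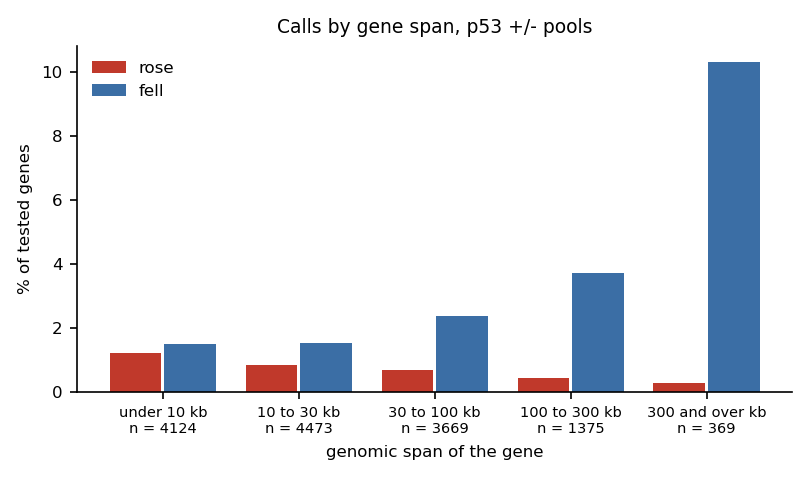
Share of tested genes (%) that rose (red) or fell (blue) with the 43 °C bath in heterozygous pools, by genomic span of the gene in kb, with the number of genes per class. The share that fell is 1.5% below 10 kb and 10.3% at 300 kb and over, while the share that rose is 1.21% and 0.271%.

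The remaining falls among the 15 largest without overlap were Mmrn1, a platelet and vessel protein (-1.06 ± 0.20, adjusted p = 0.0079), Pdzph1 (-1.01 ± 0.15, adjusted p = 0.0017) and Prkdc, the catalytic subunit of DNA-dependent protein kinase (-0.85 ± 0.16, adjusted p = 0.0088). Prkdc read 3.61, 3.48, 3.80 and 3.48 in control and 1.40, 2.16, 1.94 and 2.63 in heat, so the groups were separate.

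The heterozygous response was set against the wildtype and null responses, which come from other arrays. Of the 188 rises, 76 were also rises in wildtype pools (40.4% of the heterozygous and 20.2% of the 377 wildtype rises), and of the 381 falls 167 (43.8%, and 36.5% of 458). In wildtype pools 3.33% of probes changed in all (1.5% higher and 1.83% lower), and in null pools 5% (2.38% higher and 2.62% lower). No probe was called in opposite directions. With null pools 93 rises (49.5%, and 16.0% of 582) and 130 falls (34.1%, and 20.3% of 640) were shared, and 1 probe went the opposite way. In the test of the difference itself, no probe of 24145 separated the heterozygous from the wildtype response with limma (1553 at an unadjusted p under 0.05). With control A and B only 8 did, and with control C and D only 23 did.

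Against the null response 5 of 23895 probes differed (0.0209%). Dusp28, Bloc1s3, Med18 and Tasor had heat responses of -0.19, -0.18, -0.19 and -0.19 in heterozygous pools, none past the test, and 1.18, 0.97, 0.95 and 0.87 in null pools. The long non-coding or predicted gene Gm26843 rose by 0.28 ± 0.06 (adjusted p = 0.017) in heterozygous pools, from 0.68 ± 0.03 to 0.83 ± 0.07 (SD, n = 4), and gave -0.44 in null pools. Its control A and B values lie at the floor of 0.66. The rise did not pass without a floor, with median centring or against control C and D only. Without a floor, no probe was higher past the test against the null response. This comparison rests on the choice of controls: 3643 probes differed with control A and B only, none with control C and D only (939 at an unadjusted p under 0.05), and 3310 without control C, control D and heat D.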

How the data were processed

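Gene expression was measured on 23 one-colour CodeLink arrays, and 8 of them, 4 p53 +/- pools per bath, make the comparison. The deposited intensities are linear, and the log2 medians of the arrays over the probes complete on all of them span 0.336. The scanner, background and normalization steps are not stated in the labels. Blank cells and the code -9999 were taken as missing. Values below the array's 5th percentile over the 18702 probes complete on all arrays were raised to it, log2 was taken, and arrays were quantile-normalized on those probes. A model with 6 group means over 23 arrays was fitted with limma 3.58.1 (R 4.3.3; lmFit, and eBayes with an intensity trend), with Benjamini-Hochberg adjustment over the 25309 probes with at least 3 values on each side and a threshold of 0.05. In simulated data the fit recovered 84 of 100 changes of size 1 on the log2 scale and 45 of 100 of size 0.5. Of its 139 calls 10 were false. The simulated errors were independent and lacked the split between pools seen here, so they cannot show how that split affects the calls. Of 36227 probes, 21615 carry 1 gene symbol, 681 several and 13931 none; 21487 of the symbols matched RefSeq (GRCm38.p6), which gave spans and promoters.

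The members and gene lists were chosen with earlier results of these data known. Genes named are the 15 largest rises and falls without overlap, the list members that passed, the 3 of smallest p in each list, the 10 of smallest p in each difference between genotypes, and a fixed set of heat shock, p53, metal and sterol genes; others are said to be chosen after their values were seen. Alternatives changed the scaling, floor, filters, arrays fitted and control pools, left out single pools, and blocked on the pool letter.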

Additional observations from a re-analysis of the deposited data

Results flagged for a closer look

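In 197 groups of 4 pools, 9 held a pool set far apart from the other 3, and chance alone sets about 1 group in 20 apart. Heat A was low for Gpc6 (1.07, against 2.11 to 2.26). Heat D was high for Sdha (61.2, against 44.9 to 45.9) and low for Cdkn1a (1.92, against 4.96 to 5.49) and Elovl6 (21.2, against 22.8 to 23.1). Heat B was high for Apoa4, an apolipoprotein of the yolk sac (5.24, against 2.12 to 2.36). Among controls, pool A was low for Sfn (6.42, against 7.46 to 7.69), pool B for Pmvk (28.4, against 32.4 to 33.0) and Fhit (2.01, against 2.51 to 2.57), and pool D for Astn1 (1.90, against 2.33 to 2.40).

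The heat response of heterozygous pools differed from that of null pools for 5 genes, by the limma test of the difference. It was 0.715 higher on the log2 scale for Gm26843 (adjusted p = 0.0031), a gene near the floor that did not pass without a floor. The differences were -1.15 for Bloc1s3 (adjusted p = 0.0054), -1.37 for Dusp28 (adjusted p = 0.029), -1.14 for Med18 (adjusted p = 0.030) and -1.06 for Tasor (adjusted p = 0.036). None of these passed against control C and D only.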

How the results depend on the processing

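The count of 569 changed probes became 138 with only the compared arrays in the fit (3271 at an unadjusted p under 0.05 with limma), 1505 with control A and B only, and 1353 without control C, control D and heat D, a setting chosen after seeing the data; leaving out single pools gave 290 to 733. The difference from wildtype (0 probes) became 1 as deposited, 1 without dim probes, 8 with control A and B only, 23 with control C and D only and 3 without control C, control D and heat D, and 0 to 2 without single pools. The difference from null (5 probes) became 8 as deposited, 0 with only the compared arrays (2870 unadjusted), 3643 with control A and B only, 0 with control C and D only (939 unadjusted) and 3310 without control C, control D and heat D, and 2 to 17 without single pools. The pool letters did not clearly pair the pools (correlations of deviations 0.19, 0.38, -0.12 and 0.30 for A to D, and 1 of 4 heat pools closest to its own letter). In wildtype and null pools these correlations lay between -0.03 and 0.25. With the letter as a replicate block, the counts were 684, 0 and 3 over all arrays, and 0 (3060 unadjusted), 3 and 0 (2943 unadjusted) over the compared arrays. Signs turned for Cdkn1a (-0.39 with control A and B only, -0.028 without control C, control D and heat D), for Mdm2 (-0.29 without a floor), and with control C and D only for Dusp28 (0.025), Tasor (0.035) and Dhcr7 (-0.040). The cause of these shifts was not tested. No probe kept its call in every setting; 210 of 569 kept it whichever single pool was left out. Probes at the floor, 2034 of those tested in all 8 pools, and bright probes blank in controls limit what could be seen.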

Other observations

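The genes here were chosen after their values were seen. The class I histocompatibility genes H2-D1 and H2-Q8, which present peptides to T cells, rose. H2-D1 read 6.68, 6.89, 8.02 and 7.43 in control and 11.2, 10.6, 9.29 and 9.50 in heat (0.49 ± 0.09, limma adjusted p = 0.0096). H2-Q8 read 3.27, 2.99, 3.26 and 3.12 against 5.25, 4.46, 4.17 and 4.01 (0.49 ± 0.08, adjusted p = 0.0028). Heat pools lay above controls for both, and heat A and B were the highest. This H2-D1 probe did not pass as deposited (adjusted p = 0.072) or against control C and D only (adjusted p = 0.079). A second H2-D1 probe rose by 0.53 and kept its call with either pair of controls and whichever 1 pool was left out. Probes for these close relatives can share signal.

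Pcca and Pccb, the subunits of biotin-dependent propionyl-CoA carboxylase, changed by -0.70 ± 0.15 (adjusted p = 0.017) and -0.57 ± 0.09 (adjusted p = 0.0026). Hlcs, which attaches biotin to carboxylases, read 2.67, 3.07, 2.84 and 2.69 in control and 1.87, 1.82, 1.73 and 1.57 in heat (-0.69 ± 0.13, adjusted p = 0.0079), without overlap. Bckdhb, of branched-chain amino acid breakdown, fell by 0.44 ± 0.07 (adjusted p = 0.0025), while its partner Bckdha gave -0.16 ± 0.06 (adjusted p = 0.22). Dbt, the third enzyme subunit of the same complex, gave -0.01 ± 0.14 (adjusted p = 1), and the carboxylase subunit Mccc1 -0.34 ± 0.10 (adjusted p = 0.080). Pcca did not pass against control A and B only (adjusted p = 0.075). Xrcc6 (Ku70), which holds broken DNA ends with the kinase encoded by Prkdc, read 13.7, 15.9, 13.8 and 14.9 against 10.6, 10.7, 9.54 and 9.37 (-0.54 ± 0.10, adjusted p = 0.0088), again without overlap.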
